A study of Mus musculus with 2 samples.

Results

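The genes examined here belong to the BCL2 family, whose proteins hold mitochondria intact or permeabilize them and so set whether a cell survives or dies by apoptosis. The 10 listed members were 3 protective genes (Bcl2, Bcl2l1 and Mcl1), the pore-forming effectors Bax and Bak1, and 5 BH3-only genes (Bcl2l11, Bid, Bad, Bbc3 and Pmaip1). They were taken by symbol alone, as every probe set that the platform annotation assigns to 1 of these genes and no other. This gave 29 probe sets of 9 genes, out of 18193 genes with a named probe set. Bax was not analysed here.

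RNA came from the dissected membrane of air pouches, cavities raised with air under the skin of female BALB/c mice aged 6 to 8 weeks. The control pool joined RNA of 3 mice injected with 1 ml PBS. The MSU pool joined RNA of 3 mice injected with 2 mg monosodium urate (MSU) crystals, the crystals of gout, in 1 ml PBS. Membranes were taken 9 h after injection, and each pool was hybridized to 1 array.

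With 1 array per pool there were no replicates, so no test was possible and all values describe these 2 pools. A log2 ratio below is log2 of the MSU signal over the control signal, and a positive value means a higher signal in the MSU pool. A fold is given where both signals reached the detection floor of their array, 64.6 for control and 74.1 for MSU, and a bound against the floor where only 1 signal did. Each gene is represented by its brightest probe set unless another is named. Probe sets of the same gene gave log2 ratios with a pooled SD of 0.33 over 4002 genes, which is the yardstick for technical spread used here and holds no variation between mice. The spike-ins added at hybridization gave brighter values on the MSU array in all 18 of their probe sets, and scaling the arrays on these would lower each log2 ratio by 0.46.

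Healthy cells keep the effectors Bax and Bak inactive through the protective proteins Bcl-2, Bcl-xL (from Bcl2l1) and Mcl-1. BH3-only proteins sense stress and bind the protective proteins or the effectors directly, after which the effectors open the outer mitochondrial membrane and cytochrome c leaves. Neutrophils are known to depend on Mcl-1, a protein of short half-life, and on the related A1 proteins, and Bim (from Bcl2l11) is known to promote their death.

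The sequences upstream of the start are printed for 4 of the 9 members that have them, to show the upstream bases of the protective genes with a higher MSU signal and of a pair of BH3-only genes that hold the same motif. Each is the 250 bases before a RefSeq start of GRCm38.p6, read in the direction of the gene. They lie at chr3:95658471-95658720 (plus strand) for Mcl1, chr2:152830718-152830967 (minus strand) for the middle of 3 starts of Bcl2l1, chr2:128125788-128126037 (plus strand) for Bcl2l11 and chr7:16310011-16310260 (plus strand) for Bbc3. Capitals mark a FOXO site in Bcl2l11 and Bbc3 and an NF-κB site in Bcl2l1.
Mcl1: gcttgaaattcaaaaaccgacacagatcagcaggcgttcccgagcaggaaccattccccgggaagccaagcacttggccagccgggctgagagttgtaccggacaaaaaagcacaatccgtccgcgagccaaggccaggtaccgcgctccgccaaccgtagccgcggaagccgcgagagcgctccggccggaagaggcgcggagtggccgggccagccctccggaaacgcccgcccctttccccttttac
Bcl2l1: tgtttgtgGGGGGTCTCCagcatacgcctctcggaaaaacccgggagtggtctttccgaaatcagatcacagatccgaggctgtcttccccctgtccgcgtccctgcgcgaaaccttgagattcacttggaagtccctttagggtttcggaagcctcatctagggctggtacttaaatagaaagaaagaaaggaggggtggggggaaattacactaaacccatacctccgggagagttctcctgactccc
Bcl2l11: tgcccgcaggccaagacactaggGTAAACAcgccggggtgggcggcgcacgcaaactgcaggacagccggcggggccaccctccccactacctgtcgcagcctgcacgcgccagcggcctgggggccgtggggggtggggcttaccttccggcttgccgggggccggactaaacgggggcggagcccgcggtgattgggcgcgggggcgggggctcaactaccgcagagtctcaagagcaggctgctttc
Bbc3: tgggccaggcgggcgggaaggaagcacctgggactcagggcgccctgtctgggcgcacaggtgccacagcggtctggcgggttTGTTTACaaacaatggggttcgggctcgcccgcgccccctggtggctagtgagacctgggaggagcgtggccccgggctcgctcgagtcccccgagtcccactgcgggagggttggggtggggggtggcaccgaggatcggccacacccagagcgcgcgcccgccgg

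FOXO transcription factors are known activators of Bcl2l11 and Bbc3. The FOXO site searched was TGTTTAC on either strand, and it was found in 1 of 2 windows of Bcl2l11, 1 of 3 of Bbc3 and no other of the 15 windows of the 9 members with one, against 3.17% of all 32851 windows. The NF-κB consensus was found in 1 of 3 windows of Bcl2l1 and, as 2 overlapping matches, in another window of Bbc3, against 7.25% of all windows. The window of Mcl1 held a GC box (GGGCGG, in 32.7% of all windows) and none of the other motifs searched, namely those of STAT (TTCNNNGAA), CRE (TGACGTCA), AP-1 (TGANTCA), the E-box (CACGTG), the CCAAT box (CCAAT), the TATA box (TATAAA), p53 and the serum response element. A match is a stretch of letters and not a binding site shown to be used.

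None of the 8 members with a fold differed by 2-fold or more in either direction on its brightest probe set. Bcl2 has only a bound there, at least 1.45-fold lower, so whether it passed 2-fold cannot be told. Protective and BH3-only genes were both mostly higher in the MSU pool, and the effector Bak1 was lower. Under scaling on the spike-ins, however, Bcl2l11 and Bid alone kept a positive log2 ratio. Among the 11155 genes measured (with a fold or a bound), the share past 2-fold was 3.7% upward and 4.29% downward. Higher genes made up 46.4% of those past 2-fold, 10.1% under scaling on the spike-ins and 60.4% with the floors added as pseudocounts. At 1.5-fold, 2 of the 9 members, Bcl2l11 and Bid, were higher and 1, Bak1, was lower, against 8.65% and 14.4% of all measured genes. Bounds were counted at their value, so the lower count may miss Bcl2. The median log2 ratio was 0.36 over the 8 members with a fold and -0.05 over all 10045 genes with a fold.

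**Figure D1:**
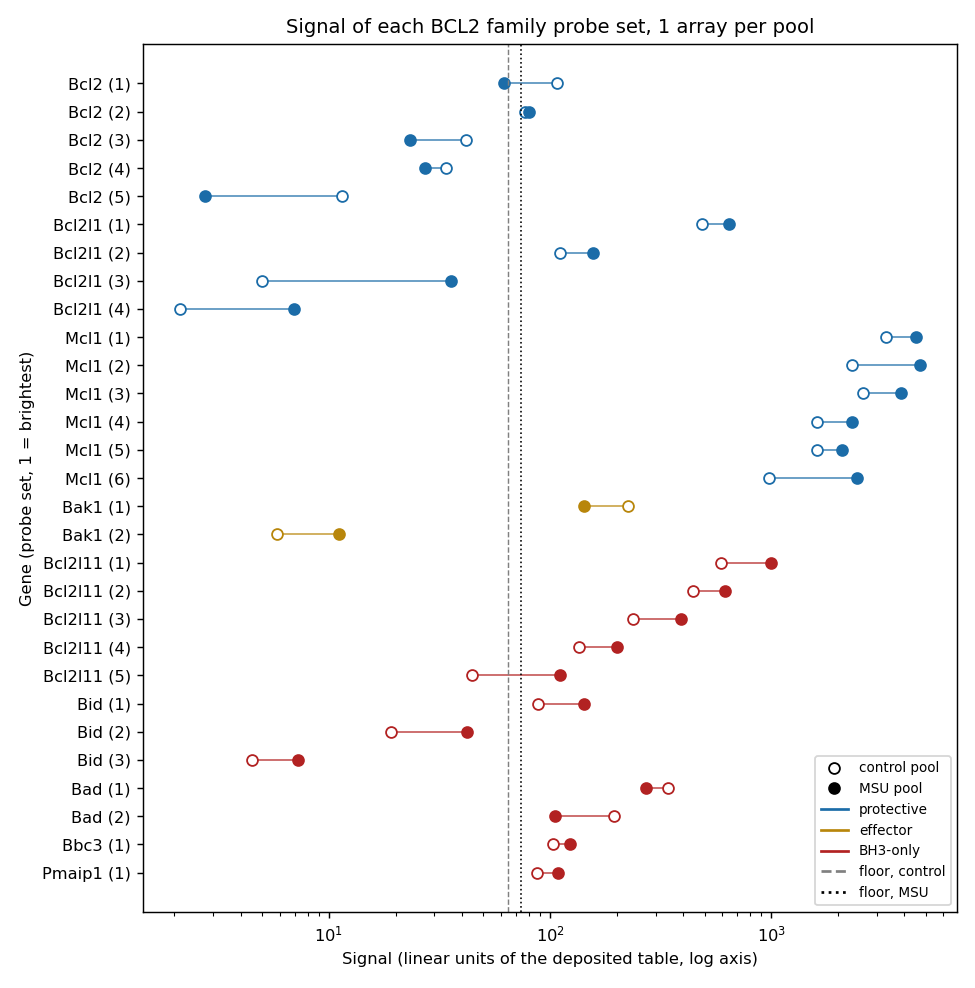
Signal of the 29 probe sets (x axis, linear signal on a log axis) by gene and probe set numbered from the brightest (y axis), with open circles for the control pool, filled circles for the MSU pool, 1 array each, colours for the role of the gene, and vertical lines for the floors of 64.6 and 74.1. All 6 Mcl1 and all 5 Bcl2l11 probe sets have the filled circle to the right, whereas both Bad probe sets and all but 1 of the Bcl2 probe sets have it to the left.

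Mcl1, which encodes the protective protein of rapid turnover, had a higher signal in the MSU pool on all 6 of its probe sets as scaled by the authors, and on 4 of the 6 under scaling on the spike-ins. The brightest read 3315 on the control array against 4536 after MSU crystals, a 1.37-fold higher value (log2 ratio 0.45). The size differed widely between probe sets, and for 2 of the 6 it exceeded 2-fold. Signals of 2331 and 4734 gave 2.03-fold, and signals of 981 and 2456 gave 2.50-fold. A further probe set annotated with the same sequence record as these had signals of 1619 and 2085, or 1.29-fold. The 3 probe sets whose names end in _x_at, which marks probes that may also match other transcripts, lay between 1.37- and 1.48-fold.

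Over its 6 probe sets, Mcl1 had a median log2 ratio of 0.54 with an SD of 0.38, somewhat above the pooled 0.33. Of all genes with a fold, 12.5% had a higher ratio than the brightest Mcl1 probe set. Scaling on the spike-ins brings that probe set to a log2 ratio of -0.004 and the steepest to 0.87, so the direction depended on the scaling for the first and not for the second.

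Bcl2l1, the gene of Bcl-xL, was higher in the MSU pool by about the same amount as the brightest Mcl1 probe set, but on the brightest probe set of either gene not under scaling on the spike-ins. Its brightest probe set read 487 in control and 643 after MSU crystals, 1.32-fold higher. The next had 110 and 156, or 1.41-fold, and the SD between their log2 ratios was 0.07. The other two probe sets lay below the floor in both pools, with signals of 4.98 and 35.8 and of 2.13 and 6.97, and give no fold. On the spike-in scale the log2 ratio of the brightest was -0.06 in place of 0.40, and that of the next 0.04 in place of 0.50.

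Bcl2, the founding member and a protector of lymphocytes in particular, was near the floor and its probe sets disagreed. The brightest read 107 in control and 62.2, below the floor, after MSU crystals, which makes it at least 1.45-fold lower. The next had 77.4 and 80.6, or 1.04-fold higher, both just above the floor. The remaining 3 probe sets lay below the floor in both pools and were dimmer in the MSU pool, with control signals of 41.5, 34.0 and 11.4 and MSU signals of 23.4, 27.2 and 2.76. No direction can be given for Bcl2 from these values, since the only probe set above both floors had a log2 ratio of 0.06. Of 7 T and B cell markers with a named probe set, only Cd8a reached the floor, with signals of 98.2 and 97.8. That probe set ends in _x_at, and the other Cd8a probe sets lay below the floor in both pools.

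**Figure D2:**
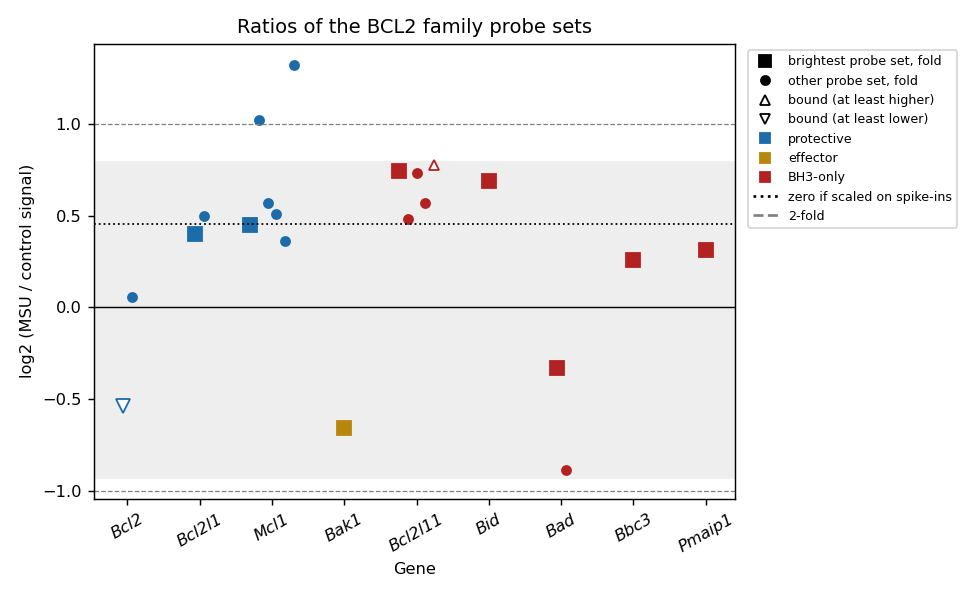
Log2 ratio of MSU over control signal (y axis) for each probe set with a fold or a bound, by gene (x axis), 1 array per pool. Squares are the brightest probe sets, circles the others, open triangles bounds, the grey band holds the middle 90% of genes with a fold (-0.93 to 0.79), dashed lines mark 2-fold and the dotted line (0.46) is where 0 would lie under scaling on the spike-ins. Among these values only 2 Mcl1 probe sets pass 2-fold, and Bcl2l11 is tightly grouped.

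Bak1 encodes the effector Bak and had the lowest ratio of the 8 members with a fold on their brightest probe sets. Bcl2, which has only a bound there, cannot be ranked against it. Its brighter probe set read 225 in control and 143 after MSU crystals, 1.58-fold lower (log2 ratio -0.66), and 88.5% of genes with a fold had a higher ratio. Bak1 was lower under all 10 processings tried, with log2 ratios from -1.11 to -0.42. All of them use this same probe set, so they are not separate measurements. The other Bak1 probe set gave signals of 5.81 and 11.1, brighter in the MSU pool but both below the floor, and gives no fold.

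Bcl2l11, the gene of the BH3-only protein Bim, which binds all the protective proteins, had the highest ratio of the members on the brightest probe set. It read 594 in control and 994 after MSU crystals, or 1.67-fold higher. The further probe sets had 444 and 620 (1.40-fold), 236 and 392 (1.66-fold), and 135 and 200 (1.48-fold). The dimmest, with a control signal of 44.3 below the floor and an MSU signal of 111, was at least 1.71-fold higher. The SD between the 4 log2 ratios with a fold was 0.13, less than the pooled SD of 0.33, and their median was 0.65. Of genes with a fold, 5.53% had a higher ratio. All 5 probe sets kept a positive log2 ratio on the spike-in scale, from 0.03 to 0.86 when the dimmest is taken as a plain ratio.

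Bid, which caspase-8 cleaves to link death receptors to mitochondria, read 88.0 in control and 142 after MSU crystals, 1.61-fold higher. Its control signal lay close to the floor of 64.6, and adding the floors as pseudocounts lowered its log2 ratio from 0.69 to 0.50. The other 2 Bid probe sets lay below the floor in both pools, at 19.1 and 42.3 and at 4.48 and 7.22. Both were brighter in the MSU pool but give no fold. The Bid log2 ratio remained positive, at 0.23, under scaling on the spike-ins.

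Bad, whose protein is held in check by growth factor signals through phosphorylation, was lower in the MSU pool on both probe sets. Signals of 343 and 273 made the brighter 1.26-fold lower. The other, at 194 and 105, was 1.85-fold lower, and the SD between the log2 ratios of the pair was 0.39. Bad was lower under all 10 processings, with log2 ratios from -0.79 to -0.23.

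The p53-induced BH3-only genes Bbc3 (PUMA) and Pmaip1 (NOXA), each with 1 probe set, differed little between the pools. Bbc3 read 103 in control and 123 after MSU crystals, or 1.20-fold higher. For Pmaip1, whose protein binds Mcl-1 by preference, the values were 87.2 and 108, or 1.24-fold higher. Both log2 ratios, 0.26 and 0.31, were smaller than the pooled SD between probe sets and turned to -0.20 and -0.14 on the spike-in scale.

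**Figure D3:**
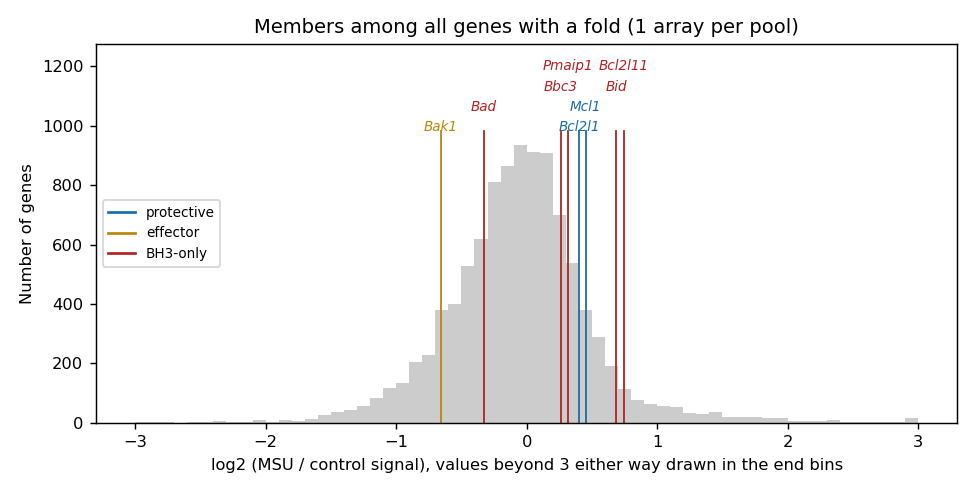
Number of genes (y axis) by log2 ratio (x axis, MSU over control) for the 10045 genes with a fold, with a coloured line for each of the 8 members with a fold, 1 array per pool. All 8 lie inside the middle 90% of genes, from Bak1 at -0.66 to Bcl2l11 at 0.74.

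Set against each other, the protective members with a fold lay within the range of the death-promoting ones. Bcl2, at least 1.45-fold lower on its brightest probe set, has only a bound and was left out of the range and the pairs. The median log2 ratio was 0.43 over the protective genes with a fold, Bcl2l1 and Mcl1, and 0.29 over the 6 death-promoting genes with a fold. The difference of these medians was 0.14, with no error that 2 arrays could give. With the bound of Bcl2 included at its value, the difference was 0.11. In 8 of the 12 pairs of a protective and a death-promoting gene the protective gene had the higher log2 ratio. The pairs are not separate counts, since both protective genes exceeded the same genes, namely Bak1, Bad, Bbc3 and Pmaip1. By more than 0.33, 5 of the 12 pairs differed. These were the pairs with Bak1 or Bad and, in the other direction, Bcl2l1 below Bcl2l11 by 0.34. The 0.33 is the spread of single ratios, and a difference of 2 ratios spreads more. Mcl1 exceeded Bak1 by 1.11 on the log2 scale and Bad by 0.78, but lay below Bcl2l11 by 0.29 and below Bid by 0.24. The spread within the death-promoting group, from -0.66 to 0.74, was wider than the difference between the groups. The difference depended on the Mcl1 probe set. Without probe sets ending in _x_at or _s_at, which leaves the Mcl1 probe set at 2.03-fold, it was 0.42 and the protective median 0.71. Over all 6 Mcl1 probe sets it ran from 0.10 to 0.58, a comparison chosen after the values were seen.

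Differences between 2 genes on the same arrays do not depend on a common scaling factor, so the scaling on the spike-ins left the 0.14 as it was while turning the median of the protective genes to -0.03 and that of the death-promoting genes to -0.17. With the floor raised to the 15000th brightest probe set, Bid and Bbc3 had only a bound and Pmaip1 neither fold nor bound, and the difference was 0.76 over the 3 death-promoting genes left.

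Further relatives differed in both directions. Among other death-promoting relatives, 5 of the 7 named on the array were measured and none differed by 2-fold. Bnip3, a mitochondrial protein induced by hypoxia, read 1132 in control and 2234 after MSU crystals, 1.97-fold higher. Bok, a relative of Bax and Bak, had 232 and 124 and was 1.87-fold lower. Bmf, a BH3-only protein tied to the cytoskeleton, had 188 and 104 and was 1.81-fold lower, while Hrk had 65.0 and 92.0 close to the floor. Scaling on the spike-ins left Bnip3 at a log2 ratio of 0.52 and took Bok and Bmf to -1.36 and -1.31.

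Of the other protective relatives, Bcl2l2, the gene of Bcl-w, had signals of 306 and 305, and a dimmer probe set at 58.0 and 109 disagreed with it. Bcl2l10 reached neither floor. The A1 genes (Bcl2a1a to Bcl2a1d) are annotated on probe sets that they share with each other, and so were given no value.

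The list of caspase inhibitors and their relatives held the largest differences among the pathway lists. Among the 8 measured, 2 passed 2-fold upward and 1 downward. Birc3 (cIAP2), which NF-κB is known to induce, read 531 in control and 1816 after MSU crystals, 3.42-fold higher. Naip2, a sensor of bacterial secretion systems with close paralogues that could share its probes, had 73.0 and 174 and was 2.39-fold higher. Cflar (c-FLIP), which blocks caspase-8, had 421 and 798 and was 1.90-fold higher, with log2 ratios of 0.92 on this probe set and 0.88 and 0.91 on 2 others. Birc5 (survivin), which is made in dividing cells, had 359 and 151 and was 2.38-fold lower. Over all 8 the median was a log2 ratio of 0.45, which turns to -0.003 under scaling on the spike-ins, whereas Birc3, Naip2 and Cflar remained at 1.32, 0.80 and 0.47.

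In the p53 axis 2 of 8 measured genes passed 2-fold upward, and none did downward. Gadd45a, a growth arrest gene, had 111 and 338, or 3.06-fold higher. Cdkn1a (p21), a cell cycle inhibitor, had 731 and 2012, or 2.75-fold higher. Sesn2 and Mdm2 were 1.83- and 1.55-fold higher, while Zmat3, Ccng1 and Trp53inp1 had log2 ratios of -0.31, -0.29 and -0.04. The median log2 ratio was 0.55, and 0.10 on the spike-in scale. It was 0.32 with the floors as pseudocounts and turned to -0.04 over the 5 genes left with the floor at the 15000th brightest probe set. The gene of p53 itself was not analysed here.

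No measured gene of the apoptosome and caspase list differed by 2-fold. Apaf1, the scaffold of the apoptosome, had 310 and 436, or 1.41-fold higher, and a dimmer probe set at 161 and 287 was higher too. Casp9, which it activates, had 194 and 257, or 1.32-fold higher (log2 ratio -0.05 under scaling on the spike-ins), and Casp8 had 508 and 375, or 1.36-fold lower. A dimmer Casp9 probe set at 98.3 and 92.7 differed the other way. The median over 7 genes was 0.16, turning to -0.30 under scaling on the spike-ins and to -0.05 over 8 genes without a floor. Among 5 factors released from mitochondria, 4 had a lower signal in the MSU pool on their brightest probe sets, with a median log2 ratio of -0.24. For Htra2, counted among these 4, a dimmer probe set at 109 and 138 differed the other way (log2 ratio 0.34). Endog, a mitochondrial nuclease, was 1.43-fold lower and cytochrome c (Cycs) 1.20-fold lower. The outer membrane channels and receptors had a median of -0.40 over 5 genes, with Mtch2, the mitochondrial receptor of tBid, 1.71-fold lower at 596 and 349.

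**Figure D4:**
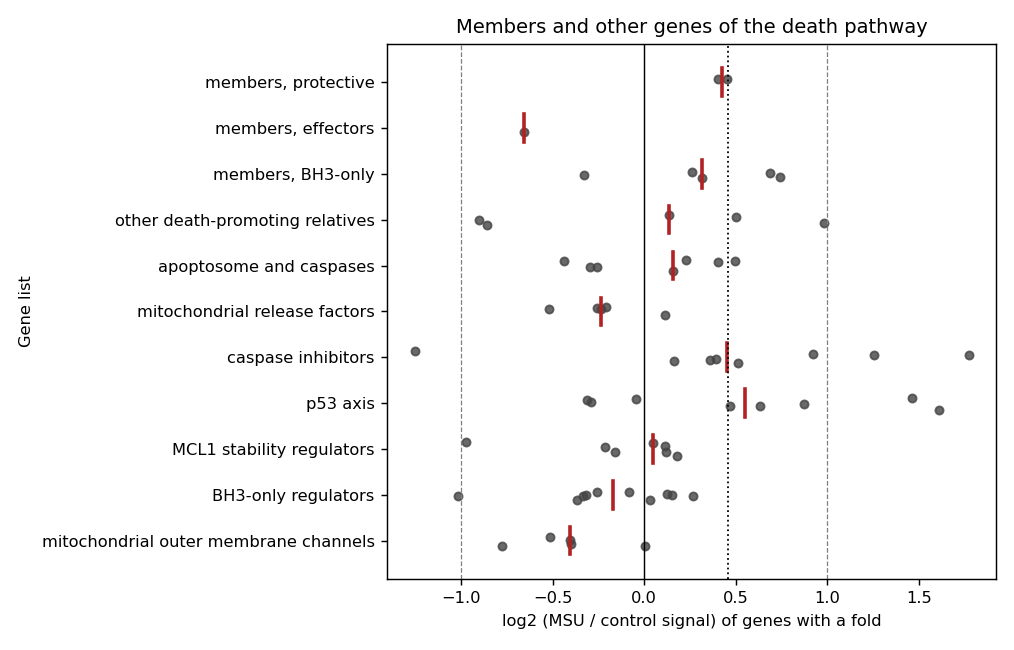
Log2 ratio of MSU over control signal (x axis) of the genes with a fold in each list (y axis), 1 array per pool. Points are genes, red bars list medians, dashed lines 2-fold and the dotted line (0.46) the zero under scaling on the spike-ins. Among the lists drawn, the caspase inhibitors span the widest range, from -1.25 to 1.77.

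Regulators of the members showed 1 gene past 2-fold. Dynll2, the light chain that is known to anchor Bmf, had signals of 624 and 308 and was 2.02-fold lower, and a dimmer probe set at 249 and 132 had a log2 ratio of -0.91. The other 9 regulators of BH3-only proteins had log2 ratios from -0.37 to 0.27 on their brightest probe sets. Among them Foxo1 was 1.26-fold lower and Foxo3 1.11-fold higher, or a log2 ratio of -0.30 on the spike-in scale. Dimmer probe sets above the floor went beyond that range, down to -0.98 (Foxo1, 240 and 122) and up to 0.56 (Akt1, 81.7 and 121). A further Foxo1 probe set had -0.07, so the size of its difference is not settled. Among 7 regulators of Mcl-1 stability the median log2 ratio was 0.05, with no settled direction, since it was -0.02 with each array divided by its median signal and -0.41 under scaling on the spike-ins. The deubiquitinase Usp9x and the ligase Huwe1, which act on Mcl-1 in opposite ways, had signals of 385 and 398 and of 492 and 440. Dimmer Huwe1 probe sets went the other way, at 77.5 and 170 (log2 ratio 1.13) and at 106 and 119, so no direction can be given for it. Cdk5 had 187 and 95.4, or 1.96-fold lower, while a dimmer probe set at 57.4 and 75.3, around the floor, differed the other way.

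Membranes are mixtures of cells, and in such samples fewer cells of a type and less RNA per cell cannot be told apart. Neutrophil markers passed 2-fold upward for 11 of 12 measured genes, and their summed signal was 3220 in control and 25521 after MSU crystals. The largest ratios were those of Stfa2l1, S100a9 and S100a8, at 13.6-, 12.1- and 10.6-fold higher. The control signal of Stfa2l1, 65.5, lay close to the floor. Ltf was 1.45-fold lower, and Camp reached neither floor. For 9 adipocyte markers the summed signal was 15042 and 4739, and for 12 skeletal muscle markers 43145 and 26776. Of the muscle markers, 10 were lower, 5 of them past 2-fold. Acta1 and Ttn were higher on their brightest probe sets, with log2 ratios of 0.20 and 0.11. Tissue macrophage markers summed to 30940 and 30784 over 12 genes but differed both ways, with Cd163 and Mrc1 1.94- and 1.78-fold higher, Folr2 2.05-fold lower and C1qa, C1qb and C1qc 1.38- to 1.43-fold lower. Fibroblast markers summed to 56268 and 63809 over 10, all of which were measured. They too differed both ways, with 5 higher, 5 lower and a median log2 ratio of 0.04. The part of these shifts in the ratios of the BCL2 family genes was not tested.

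**Figure D5:**
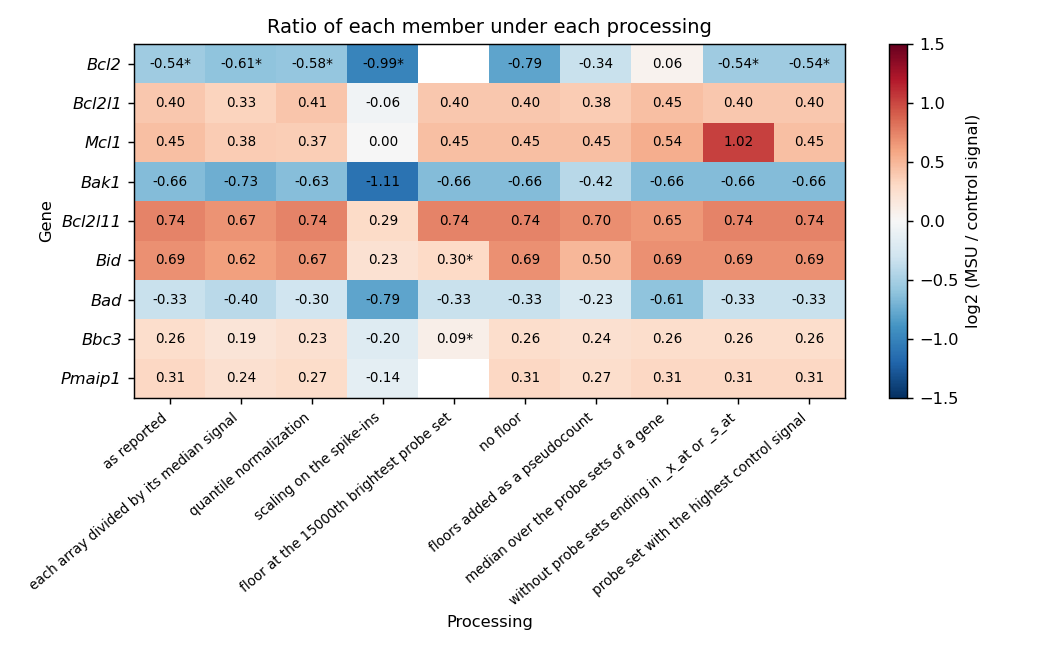
Log2 ratio of MSU over control signal (colour and printed value) for each of 9 members (y axis) under each of 10 processings (x axis), 1 array per pool, with a star for a bound and a blank where neither fold nor bound was given. Bcl2l11 and Bid are positive and Bak1 and Bad negative in every column with a value, whereas Bcl2l1, Mcl1, Bbc3 and Pmaip1 turn to or below 0 under scaling on the spike-ins.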

How the data were processed

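Pooled membrane RNA (3 mice per pool, 1 array per pool) was hybridized to Affymetrix Mo430_2 arrays. The deposited values are linear signal intensities of 45101 probe sets, which the authors computed with software from Affymetrix (the submitters' processing notes name MAS5, version not given in the sources used here) and scaled per array to a common trimmed mean. Their pouch schedule in the methods differs from that of the sample records (2 ml air, injection on day 7).

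Gene names came from the platform annotation, updated by gene identifier with the RefSeq table of GRCm38.p6. Probe sets with several genes (932) were used for no gene. The floor of each array is the signal at the rank of its number of detected probe sets in the paper, since detection calls were not used here. Bounds needed a signal above the floors of both arrays. The gene step was tested on simulated data with a single probe set per gene and large differences planted in bright genes. That test does not cover the choice between probe sets or differences as small as those of the members. No p-value was computed, since each group is 1 array, and precision is limited by the number of arrays. Members and lists were chosen with earlier results of these data known. All members are named, and from each pathway list the largest ratios and every gene past 2-fold; some further genes, such as Foxo1 and Usp9x, were named for their role. Promoter windows were RefSeq's, cut to 250 bases before the start. Alternatives covered scaling, the floor, the probe set per gene and the size limit. Computations used python 3.11.15, numpy 2.4.6 and pandas 2.3.3.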

Additional observations from a re-analysis of the deposited data

How the results depend on the processing

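The processing was varied in scaling, floor and choice of probe set. The medians and counts below moved most. Scaling on the spike-ins turned the median log2 ratio of the protective members from 0.43 to -0.0295, that of the death-promoting members from 0.29 to -0.17, and made 1 member, Bak1, at least 2-fold lower (log2 ratio -1.11). It also took Bcl2l1 to -0.0551 and Mcl1 to -0.00394, since each ratio falls by the same 0.46. Over all genes, 413 were past 2-fold upward and 478 downward, against 200 and 1787 with the spike-ins, 333 and 218 with the floors as pseudocounts and 1623 and 1724 without a floor. The median of all genes with a fold was -0.51 with the spike-ins, 0.09 with the pseudocounts, -0.05 as reported and between -0.12 and -0.03 under the other settings. With the floor at the 15000th brightest probe set, the median of the death-promoting members was -0.33 and the difference 0.76, over 3 death-promoting genes in place of 6. Without probe sets ending in _x_at or _s_at, Mcl1 was represented by another probe set, 1 member was at least 2-fold higher, the protective median was 0.71 and the difference 0.42. A limit of 1.5-fold gave 2 members higher and 1 lower. The counts of members took Bcl2 at its bound where it had only a bound, so they may miss it as a lower member. Bcl2 turned to 0.0584 with the median over its probe sets, of which only 1 has a fold. With Mcl1 by its probe set of highest ratio, an alternative added after the values were seen, 1 member was at least 2-fold higher, the protective median was 0.86 and the difference 0.58. Signals near the floor limit the values of Bcl2, Bid, Bbc3 and Pmaip1 most. No paired analysis was possible because each group is 1 pooled array.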
